A study of Mus musculus with 11 samples.

Results

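The 44 genes described here encode the enzymes that make and use glutathione, a set of detoxifying and stress reductases, the thioredoxin and peroxiredoxin enzymes, catalase and the superoxide dismutases, and the regulator pair NRF2 (gene Nfe2l2) and KEAP1. They were chosen by name, by their known function, and all 44 were found among the 23337 gene symbols of the count table. RNA of whole adrenal glands was sequenced from male Hsd:Athymic Nude-Foxn1nu mice, which lack a thymus and mature T cells but keep macrophages and other innate immune cells. The comparison was between 5 libraries from intact mice and 6 libraries from orchectomized mice (ORX), whose testes had been removed. Mice of both groups, about 5 to 6 weeks old at the start, were inoculated with VCaP, a line of human prostate cancer cells, at week 0, were assigned to their group at week 7, and were killed at week 15. Nothing in the labels says whether a sample is 1 mouse, so p-values here describe the spread among these libraries, some of which may be technical, and the labels give no batch.

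NRF2 is a transcription factor that KEAP1 holds in the cytoplasm and marks for degradation. Oxidants and electrophiles modify KEAP1, and NRF2 then enters the nucleus, pairs with small MAF proteins and binds the antioxidant response element of genes for glutathione synthesis, quinone and haem breakdown and peroxide removal. In the adrenal cortex, the mitochondrial cytochrome P450 enzymes that make steroids leak electrons to oxygen, and in mice peroxiredoxin 3 and its repair enzyme sulfiredoxin are known to handle the peroxide that results.

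The promoters of 4 of these genes are shown, chosen by their expression results from the genes with a matched promoter. Srxn1 varied most between libraries, Gclm is the partner of a gene that fell, and Gstk1 and Gsto1 rose. No expression result below rests on these sequences. Each is the 250 bases before the RefSeq start on GRCm38.p6, plus strand, 5′ to 3′, at chr2:152105274-152105523 (Srxn1), chr3:122245307-122245556 (Gclm), chr6:42245685-42245934 (Gstk1) and chr19:47854723-47854972 (Gsto1). Capitals mark matches, on either strand, to the core of the antioxidant response element, TGACNNNGC, or to the AP-1-like core TGANTCA.
Srxn1: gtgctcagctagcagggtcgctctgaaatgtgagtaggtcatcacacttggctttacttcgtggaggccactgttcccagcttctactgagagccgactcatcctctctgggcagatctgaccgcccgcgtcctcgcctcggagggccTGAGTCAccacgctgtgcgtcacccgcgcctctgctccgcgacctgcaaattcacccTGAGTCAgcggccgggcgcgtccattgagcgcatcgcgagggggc
Gclm: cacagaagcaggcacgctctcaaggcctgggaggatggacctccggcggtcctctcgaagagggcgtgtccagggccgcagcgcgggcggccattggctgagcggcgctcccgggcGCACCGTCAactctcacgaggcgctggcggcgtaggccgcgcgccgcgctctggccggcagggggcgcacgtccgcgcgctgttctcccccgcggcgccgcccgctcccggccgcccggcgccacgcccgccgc
Gstk1: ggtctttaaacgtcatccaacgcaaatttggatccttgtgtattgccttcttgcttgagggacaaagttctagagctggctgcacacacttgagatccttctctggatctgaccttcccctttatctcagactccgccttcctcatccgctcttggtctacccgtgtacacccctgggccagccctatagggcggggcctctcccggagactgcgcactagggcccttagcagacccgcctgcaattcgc
Gsto1: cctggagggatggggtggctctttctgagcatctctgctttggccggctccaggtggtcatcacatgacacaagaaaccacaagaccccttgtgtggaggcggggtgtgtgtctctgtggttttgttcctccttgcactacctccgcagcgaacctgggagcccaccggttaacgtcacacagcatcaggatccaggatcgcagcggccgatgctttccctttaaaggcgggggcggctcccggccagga
The Srxn1 window held the AP-1-like core at 2 places, beginning 102 and 45 bases before the start, and the Gclm window held the response element core on the minus strand, beginning 134 bases before the start. Neither core was found in the windows of Gstk1 and Gsto1. RefSeq promoters were matched for 38 of the 44 genes, and those of Hmox1, Gclc, Gsr, Gsta4, Prdx6 and Sod3 were not matched. The response element core was present for 8 of the 38 genes (Gclm, Gsta3, Gstm5, Gstm7, Nfe2l2, Prdx1, Sod1 and Txnrd1), in 8 of their 48 windows, against 10.2% of all 32851 windows of the same length. The AP-1-like core was present for 4 genes (Gstm5, Gstp1, Prdx1 and Srxn1), in 4 of the 48 windows, against 6.75% of all windows. In Prdx1 matches to both cores overlapped. A match is a description of letters and not a binding site, and nothing about the factors was read from it.

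Total gene counts ranged from 11368447 to 15029582 per library, and 14139 genes had enough counts to be tested. Markers of the adrenal cortex, summed over 9 genes, reached 35545 to 79886 CPM (a gene's count relative to the TMM-scaled total of each library) in intact and 62320 to 95377 CPM in ORX, so the labelled tissue was seen in every library. Of the 9, Hsd3b1, Cyp21a1 and Mc2r rose (log2 fold changes from 0.92 to 1.14), against 3.03% of all tested genes called higher. For each of these the groups did not overlap, as for 2.92% of all tested genes higher in ORX. Of the 9, 6 had a positive and 3 (Scarb1, Cyp11a1 and Fdx1) a negative log2 fold change. At an unadjusted p under 0.05 by edgeR, 4 were higher and 1 lower, against 22.9% of all tested genes in either direction. By edgeR 0 passed as lower, while DESeq2 called Scarb1 as lower, and limma voom Scarb1 and Cyp11a1. The 7 kidney markers summed to at most 1.37 CPM, with Umod and Slc12a3 at 0 throughout. Of 12 markers of the adrenal medulla, Slc18a2, Ret and Npy fell in ORX by edgeR, against 3.18% of all tested genes called lower. Of the 12, 10 had a negative log2 fold change, and 8 were lower at an unadjusted p under 0.05 by edgeR. DESeq2 called 6 and limma voom 8 as lower, against 11.5% and 14.5% of all tested genes called in either direction. The summed level of the 12 was 11950 to 30555 CPM in intact and 6400 to 16691 CPM in ORX. All 10 fat markers had a negative log2 fold change, 1 with an unadjusted p under 0.05, and 0 passed by edgeR or DESeq2 and 1 by limma voom, with sums of 7081 to 16951 CPM in intact and 4338 to 18988 CPM in ORX. Of 7 endothelial markers 6 had a negative log2 fold change, 4 were lower at an unadjusted p under 0.05, and 0 passed by edgeR, while DESeq2 and limma voom each called Pecam1 as lower. Their sum was 653 to 1045 CPM in intact and 649 to 855 CPM in ORX. ORX 6 stood apart from its group by transcript length: in log2 CPM against the mean of the other ORX libraries, the median difference was 0.72 for the 10% of genes with the shortest transcripts and -0.67 for the 10% with the longest. These genes have short transcripts, with a median of 1582 bases for the longest transcript against 3436 over all tested genes, and ORX 6 was the highest ORX library for 28 of the 42 tested members (66.7%), against 29.8% of all tested genes.

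Of the 42 members tested, 5 changed in ORX (11.9%), against 6.21% of all tested genes (edgeR's quasi-likelihood test, two-sided, Benjamini-Hochberg adjusted over all 14139 genes, adjusted p under 0.05). Gstk1, Prdx6 and Gsto1 rose, against a background of 3.03% of all genes called higher, and Hmox1 and Gclc fell, against 3.18% called lower. The other 37 did not pass, and 31 of these lay within 0.5 of 0 on the log2 scale. Gsta1 and Gsta2 had too few counts to be tested. The median log2 fold change of the 42 was 0.15, against 0.01 for all tested genes, and 31 had a positive and 11 a negative value. That balance moved with ORX 6: without it the median was 0.04, with 22 positive and 20 negative values, and with a correction for transcript length it was -0.01, with 20 positive and 22 negative. Groups did not overlap for 3 members, Gstk1 and Cbr1 higher in ORX (2.92% of all tested genes) and Hmox1 lower (2.36%).

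Other analyses called between 2 and 8 of the 42. DESeq2 called 6, adding Cbr1, against 11.5% of all genes. Limma voom called 8, adding Cbr1, Ephx1 and Gstm3, against 14.5%. With the length correction (6.8% of all genes called) and without intact 3 and ORX 6 (8.63%), Ephx1 joined the 5, and without ORX 6 alone (6.21%) it took the place of Gclc. With the sample number as a block, which also takes ORX 6 out of the comparison because it has no intact partner, 2 were called, Hmox1 and Gstk1, against 2.94%. At an adjusted p under 0.1, 7 passed by edgeR, against 11.4%.

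**Figure D1:**
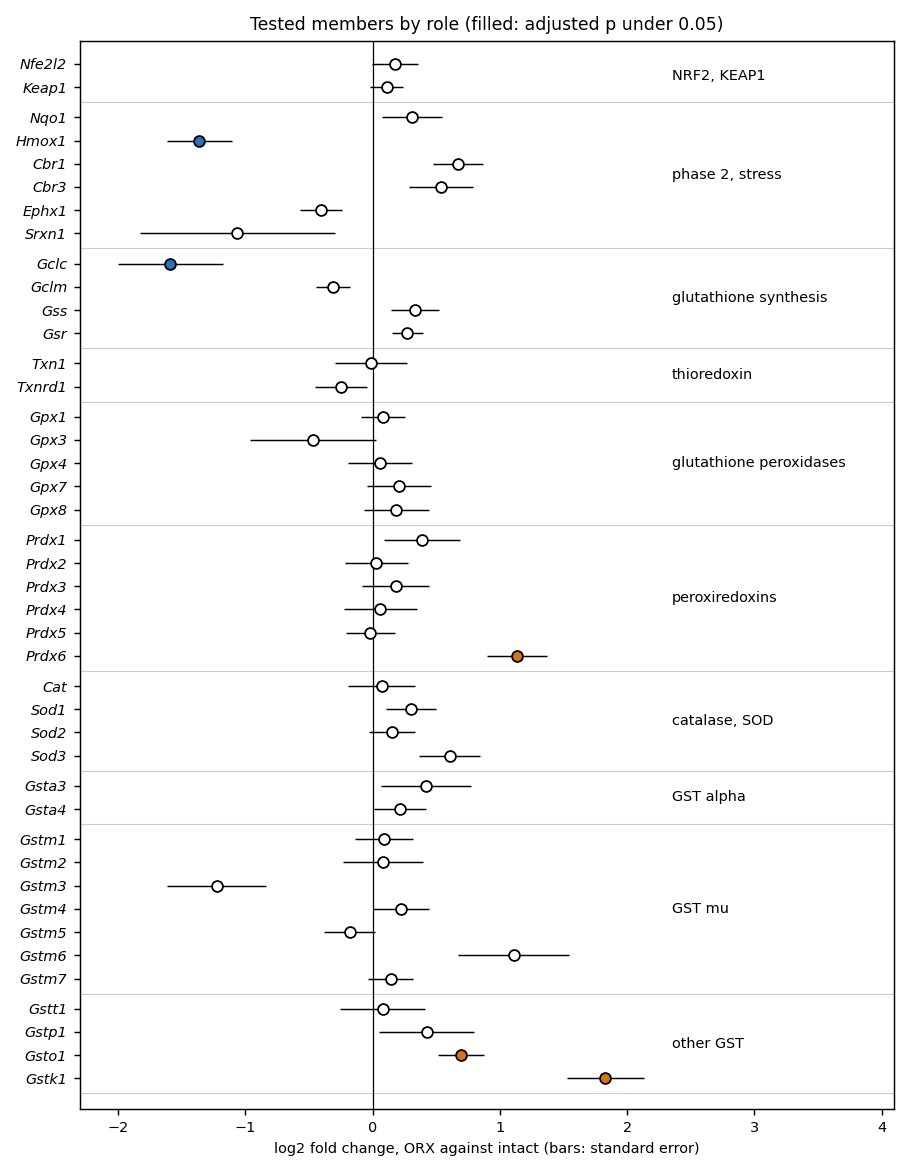
For each of the 42 tested members, grouped by role, a circle gives the log2 fold change in ORX relative to intact (horizontal axis) and a line its standard error; orange and blue fills mark genes that passed as higher or lower. Gstk1 at 1.83, Prdx6 at 1.13 and Gsto1 at 0.69 are filled to the right, Hmox1 at -1.36 and Gclc at -1.59 to the left, and most others lie near 0.

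Neither regulator gene passed the test. Nfe2l2, which encodes NRF2, measured 220, 190, 112, 139 and 151 CPM in intact 1 to 5, and 161, 214, 202, 190, 188 and 143 CPM in ORX 1 to 6. Its log2 fold change was 0.18 ± 0.18 (SE; edgeR adjusted p = 0.602). Keap1, which encodes its inhibitor, measured 86.6, 70.2, 82.5, 103 and 84.4 CPM in intact and 78.4, 100.4, 107, 92.9, 85.4 and 88.1 CPM in ORX, a log2 fold change of 0.11 ± 0.13 (edgeR adjusted p = 0.66). For both genes the ranges of the groups overlapped widely. Per kilobase of exon, the mean level of Nfe2l2 was 42.7 CPM in intact and 48.3 CPM in ORX, and that of Keap1 18.2 and 19.6 CPM. An antisense transcript, Gm16754, covers 10.9% of the exon bases of Keap1, so with the strand setting unknown some Keap1 reads may belong to it.

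Among the detoxifying and stress enzymes, 1 of 6 changed. Hmox1, haem oxygenase 1, which breaks haem down to biliverdin, iron and carbon monoxide (chr8:75093621-75100589, plus strand, GRCm38), measured 194, 237, 133, 178 and 162 CPM in intact 1 to 5. In ORX 1 to 6 it measured 41.1, 50.6, 64.9, 70.2, 66.4 and 128 CPM. Every ORX library was below every intact library, though ORX 6 came close to intact 3, and 5.28% of all tested genes separated the groups in this way in either direction. The mean fell from 181 ± 38.8 to 70.3 ± 30.5 CPM (SD, n = 5 and 6), 2.57-fold lower, a log2 fold change of -1.36 ± 0.26 (SE; edgeR adjusted p = 0.00761). Macrophages, which express Hmox1 when they clear red cells, were represented by 8 marker genes, of which 6 had a positive and 2 a negative log2 fold change, and 0 passed by edgeR (0 at an unadjusted p under 0.05), DESeq2 or limma voom. Their sum was 314 to 714 CPM in intact and 415 to 836 CPM in ORX. The 6 positive values ran from 0.06 (C1qc) to 0.33 (Lyz2). The 2 negative ones were Cd163, the haemoglobin scavenger receptor of macrophages, at -0.83 ± 0.45 (edgeR adjusted p = 0.294) and the mannose receptor gene Mrc1 at -0.55 ± 0.26 (edgeR adjusted p = 0.218). Medullary and endothelial markers were lower or mostly negative, as given above. The part of any of these cells in the falls of Hmox1 and Gclc was not tested, and in whole glands fewer cells of a type cannot be told apart from less RNA per cell.

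Cbr1, an NADPH-dependent carbonyl reductase of quinones and prostaglandins, measured 66.8, 87.5, 89.4, 88.5 and 97.8 CPM in intact and 107, 190, 112, 102, 120 and 190 CPM in ORX. Every ORX library was above every intact library, but the test was not passed (log2 0.67 ± 0.20; edgeR adjusted p = 0.0616). Its neighbour on the same chromosome, the related Cbr3, had a log2 fold change of 0.54 ± 0.25 (edgeR adjusted p = 0.219) at a lower level, 10.8 CPM in intact and 15.7 CPM in ORX on average. Ephx1, the microsomal epoxide hydrolase, was at -0.41 ± 0.16 (edgeR adjusted p = 0.159) with a mean of 216 CPM in intact and 163 CPM in ORX. ORX 6, at 228 CPM, was the only ORX library above 175 CPM of Ephx1, and without it the gene passed as lower (log2 -0.52; edgeR adjusted p = 0.0416).

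Nqo1, the quinone reductase often used as a readout of NRF2, was low: 2.55, 4.67, 5.37, 3.93 and 3.11 CPM in intact and 4.88, 4.41, 3.98, 4.95, 4.72 and 6.26 CPM in ORX. The groups overlapped (log2 0.31 ± 0.23; edgeR adjusted p = 0.465). Srxn1, sulfiredoxin, which reactivates overoxidised peroxiredoxins, had the highest level per length of all 42 in intact glands, 631 CPM per kilobase of exon on average. It measured 2693, 3851, 176, 234 and 1940 CPM in intact 1 to 5 and 145, 318, 1478, 406, 1156 and 1604 CPM in ORX 1 to 6. Each group thus held both high and low libraries, with the highest 21.9 times the lowest in intact and 11.1 times in ORX, wider than for any other tested member. The log2 fold change of -1.06 ± 0.77 did not pass (edgeR adjusted p = 0.441).

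**Figure D2:**
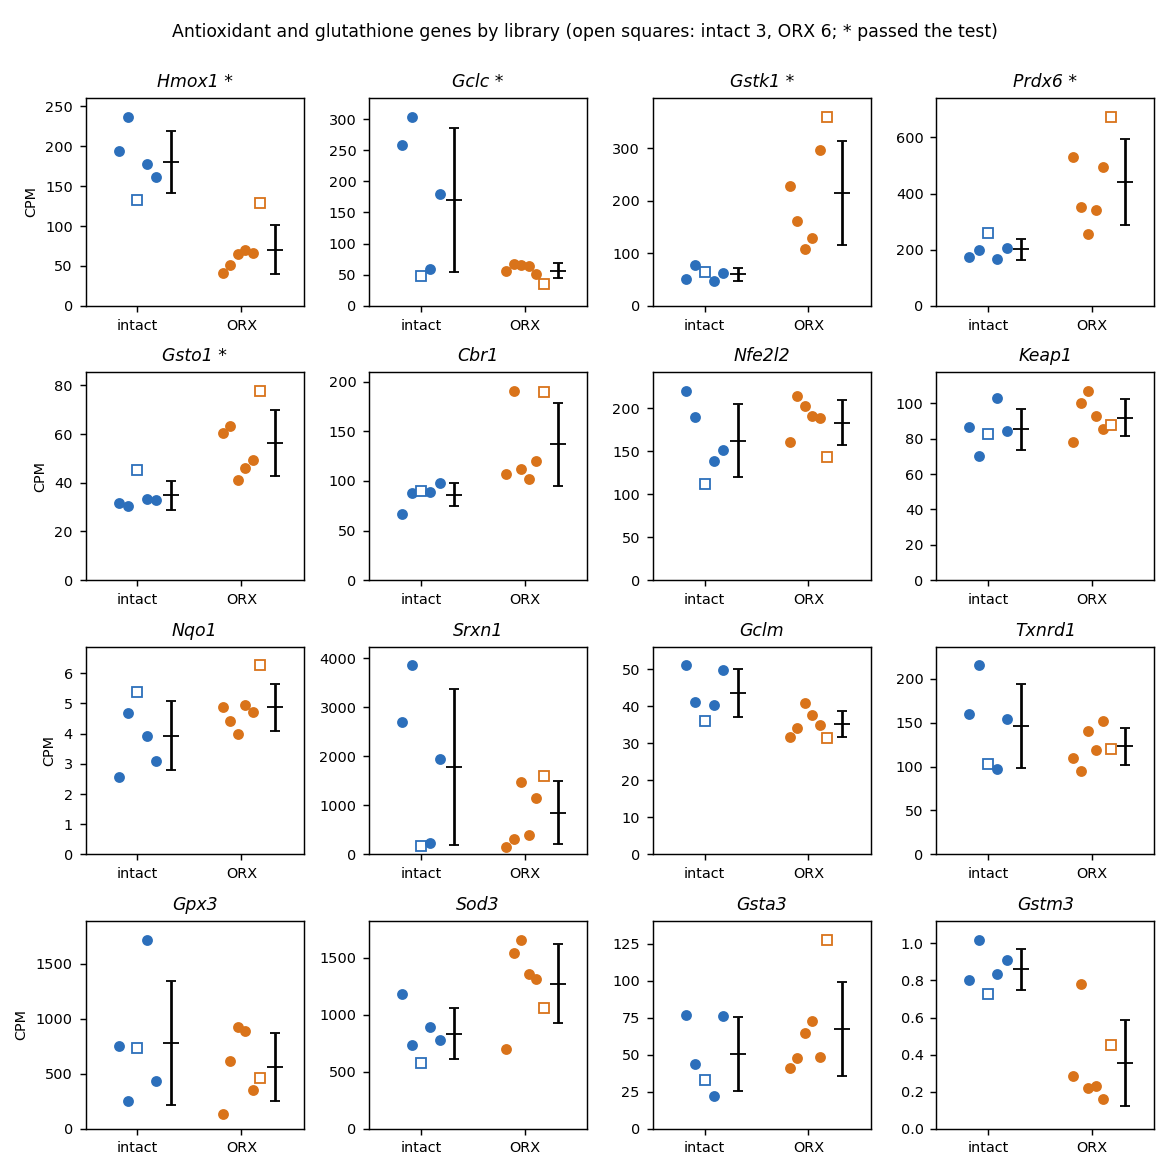
Each point is 1 library and the vertical axis is CPM, starting at 0, for 16 genes in intact (blue, n = 5) and ORX (orange, n = 6), with the mean and SD beside the points, open squares for intact 3 and ORX 6, and a star for genes that passed the test. Hmox1, Gstk1 and Cbr1 separate the groups, Gclc is high in intact 1, 2 and 5 only, and Srxn1 is spread widely in both groups.

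Of the 4 genes that make and recycle glutathione, 1 fell. Gclc, the catalytic subunit of glutamate-cysteine ligase, which carries out the rate-limiting step of glutathione synthesis (chr9:77754535-77794485, plus strand), measured 259, 304, 47.6, 59.3 and 180 CPM in intact 1 to 5. In ORX 1 to 6 it measured 55.7, 67.5, 64.9, 64.5, 50.5 and 35.8 CPM. Intact 1, 2 and 5 were above every ORX library, while intact 3 and 4 lay inside the ORX range. The fall, from 170 ± 115 to 56.5 ± 12.0 CPM, was 3.01-fold (log2 -1.59 ± 0.41; edgeR adjusted p = 0.0381). Its call ended without any 1 of 8 libraries, namely intact 1, 2 or 5 or ORX 1, 2, 4, 5 or 6 (edgeR adjusted p up to 0.0988). It also ended with a block for the sample number (log2 -1.16; edgeR adjusted p = 0.203). Without those single libraries its log2 fold change lay between -1.27 and -1.66.

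Gclm, the modifier subunit of the same ligase, did not pass: it measured 51.0, 41.1, 35.9, 40.4 and 49.7 CPM in intact and 31.7, 34.2, 40.8, 37.6, 34.8 and 31.5 CPM in ORX (log2 -0.31 ± 0.13; edgeR adjusted p = 0.179). Intact 1, 2 and 5 were the upper intact libraries of Gclm and intact 3 and 4 the lower. Intact 2 and 4 differed little (41.1 and 40.4 CPM), and intact 2 to 4 were near or inside the ORX range. Per kilobase of exon, the mean level of Gclm in intact was 6.93 CPM and that of Gclc 45.1 CPM, which was 15.0 CPM in ORX. Gss, glutathione synthetase, which adds glycine in the next step, was at 0.34 ± 0.19 (edgeR adjusted p = 0.31), and Gsr, glutathione reductase, at 0.27 ± 0.13 (edgeR adjusted p = 0.211). The exons of Gss overlap those of Acss2 on the opposite strand over 6.68% of their bases.

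The thioredoxin pair did not pass. Txn1, thioredoxin, was at -0.01 ± 0.29 on the log2 scale (edgeR adjusted p = 0.984). Txnrd1, the cytosolic reductase that recharges it, measured 160, 215, 103, 97.2 and 154 CPM in intact and 109.9, 95.1, 140.7, 119, 152 and 119 CPM in ORX, a log2 fold change of -0.25 ± 0.21 (edgeR adjusted p = 0.504). Intact 1, 2 and 5 were again the upper intact libraries of Txnrd1, as for Gclc, Gclm and Srxn1, and intact 3 and 4 the lower.

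Of 6 peroxiredoxins, the thiol enzymes that reduce peroxides, Prdx6 was the only one past the threshold. Prdx6, which reduces phospholipid hydroperoxides (chr1:161240112-161251219, minus strand), measured 174, 199, 258, 167 and 206 CPM in intact 1 to 5. In ORX 1 to 6 it measured 531, 352, 257, 341, 494 and 673 CPM. All but ORX 3 were above every intact library, and ORX 3 lay just under intact 3. The mean rose from 201 ± 35.8 to 441 ± 153 CPM, 2.20-fold (log2 1.13 ± 0.24; edgeR adjusted p = 0.0134), and without ORX 6 the log2 fold change was 0.98 (edgeR adjusted p = 0.0179). With the sample number as a block Prdx6 was not called (log2 0.95; edgeR adjusted p = 0.0737). The others had log2 fold changes from -0.02 (Prdx5) to 0.39 (Prdx1), and ORX 6 was the highest ORX library for all 6. Prdx3, the mitochondrial peroxiredoxin, had the highest level per length of the 6 in both groups, 261 CPM per kilobase in intact and 295 in ORX, with a log2 fold change of 0.18 ± 0.26 (edgeR adjusted p = 0.727). Prdx5 shares 19.1% of its exon bases with Trmt112 on the opposite strand, and Prdx2 overlaps Junb and Rnaseh2a in the same way.

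The glutathione peroxidase family, whose main members use glutathione to reduce peroxides, showed 0 changes in 5 tested genes by edgeR. Likewise 0 of the 5 had an unadjusted p under 0.05 or a call by DESeq2 or limma. Gpx3, the secreted form, measured 751, 256, 733, 1719 and 434 CPM in intact and 136, 620.0, 929, 890.1, 349.6 and 457.8 CPM in ORX (log2 -0.47 ± 0.49; edgeR adjusted p = 0.62). The highest Gpx3 library was 6.73 times the lowest in intact and 6.82 times in ORX, with intact 4 highest of all, and without intact 4 the log2 fold change was 0.041. Gpx1, the abundant cytosolic form, ranged only from 320 to 354 CPM in intact, and ORX 6, at 550 CPM, was its highest ORX library, the others lying between 285 and 345 CPM. Gpx4, which protects membranes from lipid peroxides, was at 0.06 ± 0.25 (edgeR adjusted p = 0.917), and 34.7% of its 50-base windows also occur in transcripts of other loci, such as the pseudogene Gpx4-ps2. Gpx7 and Gpx8, of the endoplasmic reticulum, were at 0.21 and 0.19.

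Catalase and the superoxide dismutases did not pass. Sod3, the extracellular dismutase, measured 1180, 737, 574, 892 and 781 CPM in intact 1 to 5 and 697, 1536, 1656, 1353, 1311 and 1060 CPM in ORX 1 to 6. ORX 2, 3, 4 and 5 were above every intact library of Sod3 and ORX 1 was below 4 of them (log2 0.61 ± 0.24; edgeR adjusted p = 0.149). Sod1, the cytosolic copper-zinc enzyme, was at 0.30 ± 0.19 (edgeR adjusted p = 0.387), Sod2, the mitochondrial manganese enzyme, at 0.15 ± 0.18 (edgeR adjusted p = 0.66), and Cat, which removes hydrogen peroxide in peroxisomes, at 0.07 ± 0.26 (edgeR adjusted p = 0.902).

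The largest rise was in a glutathione transferase outside the main families. Gstk1, the kappa-class transferase of mitochondria and peroxisomes (chr6:42245935-42250447, plus strand), measured 51.0, 77.4, 63.9, 46.5 and 62.4 CPM in intact 1 to 5. In ORX 1 to 6 it measured 228, 162, 108, 130, 296 and 359 CPM. Every ORX library was above every intact library, with ORX 3 the nearest. The mean rose from 60.2 ± 12.1 to 214 ± 99.0 CPM, 3.55-fold (log2 1.83 ± 0.30; edgeR adjusted p = 0.00347), and without ORX 6 the log2 fold change was 1.62 (edgeR adjusted p = 0.00442). Its promoter window is the third of those printed above.

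Gsto1, the omega-class transferase, which reduces dehydroascorbate and thiol adducts (chr19:47854970-47864790, plus strand), measured 31.9, 30.5, 45.3, 33.4 and 33.0 CPM in intact 1 to 5. In ORX 1 to 6 it measured 60.4, 63.3, 41.1, 46.0, 49.4 and 77.7 CPM. Among the ORX libraries ORX 3 alone fell below intact 3, the highest intact library. The mean rose from 34.8 ± 5.98 to 56.3 ± 13.5 CPM, 1.62-fold (log2 0.69 ± 0.18; edgeR adjusted p = 0.0369). The call ended without any 1 of 7 libraries, namely intact 1, 2, 4 or 5 or ORX 1, 2 or 5 (edgeR adjusted p up to 0.096), and with the block (log2 0.58; edgeR adjusted p = 0.146). Gstp1, the pi-class transferase, was at 0.42 ± 0.37 (edgeR adjusted p = 0.533) and Gstt1, of the theta class, at 0.08 ± 0.33 (edgeR adjusted p = 0.916). Of the 50-base windows of Gstp1, 33.7% also occur in Gstp2 or a Gstp pseudogene, so its reads may have been split.

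Beside these 3 rises, the markers of the X-zone, the inner cortical layer that regresses in males, were also high in ORX. Their sum was 28.7 to 40.2 CPM in intact and 831 to 2911 CPM in ORX. All 3 genes rose, against 3.03% of all tested genes called higher. The intact sum was mostly Thrb, at 25.3 to 39.1 CPM, and the ORX sum mostly Akr1c18, at 746 to 2392 CPM. Thrb in ORX 6, at 32.7 CPM, lay inside its intact range. Of the 9 cortex markers, Hsd3b1, Cyp21a1 and Mc2r rose as well, while 3 had a negative log2 fold change, as given above. ORX 3, the lowest ORX library for Gstk1, Prdx6 and Gsto1, also had the lowest X-zone sum, 831 CPM. ORX 6 had the next lowest sum, 913 CPM. It was the highest ORX library for the same 3 genes, and for 28 of the 42 tested members in all. ORX 3 had the highest fat marker sum of all libraries, 18988 CPM. Liver markers were low, at 5.50 to 73.9 CPM in intact and at most 321 CPM in ORX, in ORX 6. All 6 tested liver markers had a positive log2 fold change, 3 with an unadjusted p under 0.05, and 0 passed by edgeR, DESeq2 or limma voom. The part of these cells in the rises was not tested.

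The alpha and mu classes of glutathione transferase, which conjugate glutathione to electrophiles, gave 0 calls among 9 tested genes by edgeR and by DESeq2. Limma voom called Gstm3 as lower. At an unadjusted p under 0.05 by edgeR, 2 passed, Gstm3 and Gstm6, against 22.9% of all tested genes. Gsta1 had 0 counts in all 11 libraries and Gsta2 had 2 counts in all, both in ORX 6; a count of 0 allows up to 3 counts, or at most 0.255 CPM per library, for counting error alone. Because 90.5% of the 50-base windows of Gsta1 and 49.8% of those of Gsta2 also occur in transcripts of other genes, reads of this pair may also have gone uncounted. Gsta3 measured 76.8, 43.9, 32.9, 21.8 and 76.0 CPM in intact and 41.1, 48.0, 64.9, 72.9, 48.7 and 128 CPM in ORX, with overlapping groups (log2 0.42 ± 0.35; edgeR adjusted p = 0.518). Gsta4, which acts on the lipid aldehyde hydroxynonenal, was at 0.22 ± 0.21 (edgeR adjusted p = 0.573).

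Within the mu cluster on chromosome 3, levels per length differed by orders of magnitude, from 0.655 CPM per kilobase for Gstm3 to 308 for Gstm1 in intact. Gstm3 measured 0.802, 1.02, 0.729, 0.837 and 0.909 CPM in intact and 0.287, 0.779, 0.221, 0.228, 0.160 and 0.452 CPM in ORX. ORX 2 was the only ORX library of Gstm3 inside the intact range (log2 -1.23 ± 0.39; edgeR adjusted p = 0.0769). Gstm6 had the opposite sign at 1.11 ± 0.43 (edgeR adjusted p = 0.148), and Gstm1, Gstm2, Gstm4, Gstm5 and Gstm7 lay between -0.18 and 0.22. Gstm3 shares 28.8% of its 50-base windows with other genes, Gstm1 18.9% and Gstm6 5.97%, so their values are uncertain. The windows of Gstm3 are shared mainly with Gstm1, which is far more abundant, and with Gstm6.

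**Figure D3:**
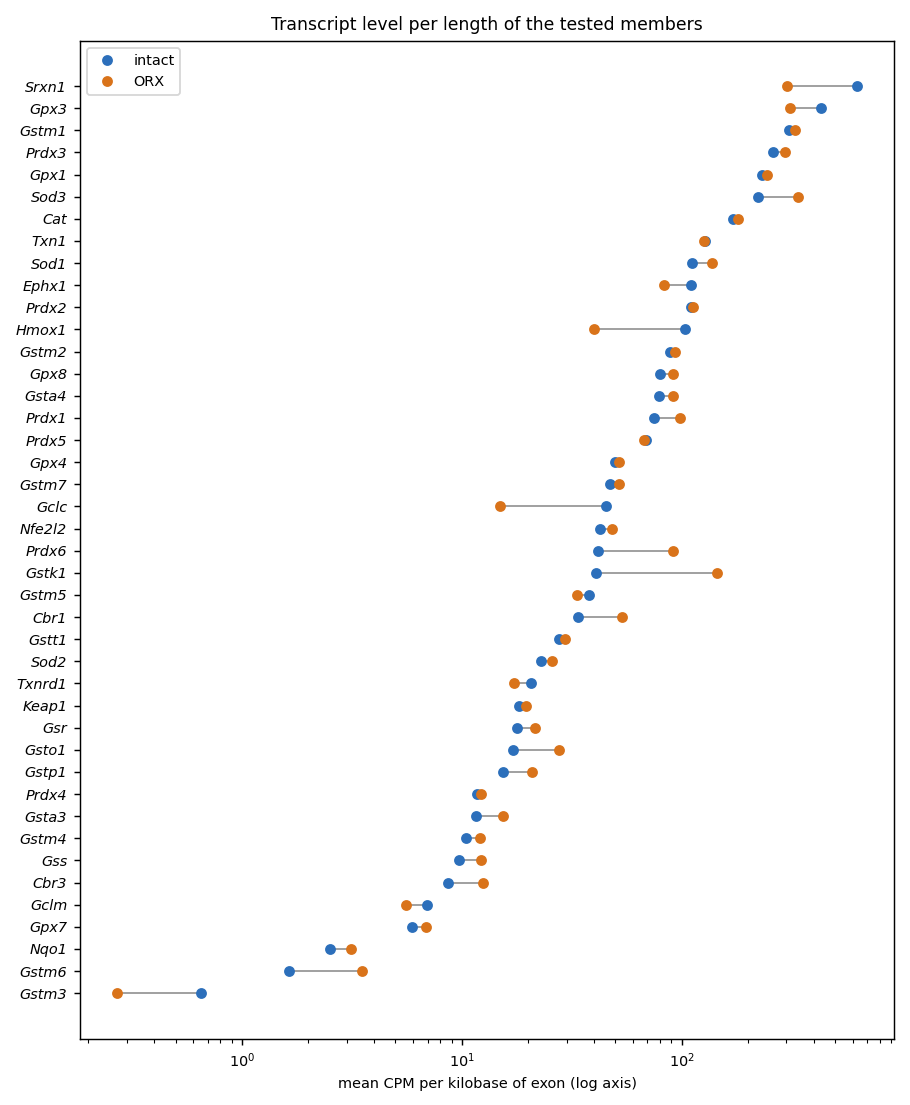
Mean CPM per kilobase of exon (horizontal log axis) of the 42 tested members in intact (blue) and ORX (orange), ordered by the intact level. Srxn1 at 631 in intact is highest and Gstm3 at 0.655 lowest. The longest gaps between the groups include Gstk1, Gclc, Hmox1 and Prdx6, and also Gstm3, Gstm6 and Srxn1, which did not pass the test.

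**Figure D4:**
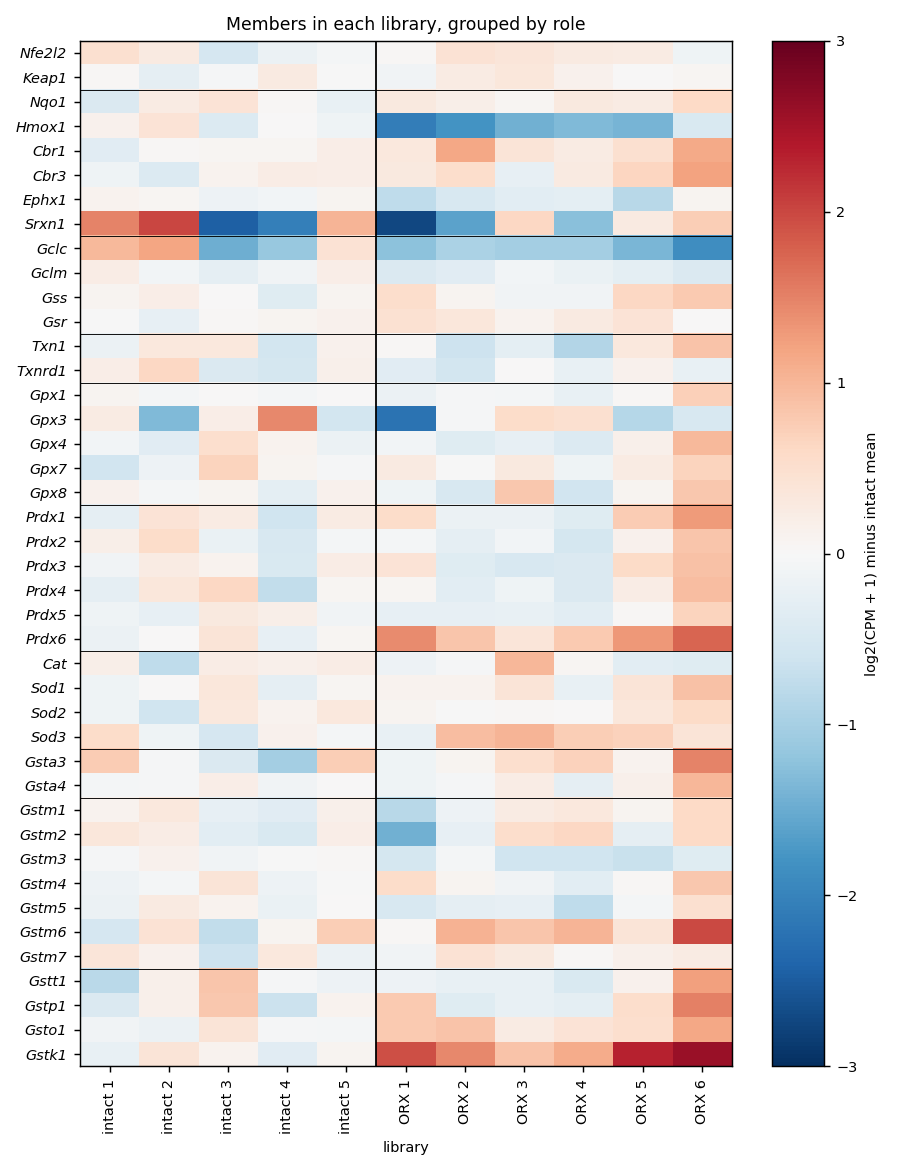
Each cell is log2(CPM + 1) of 1 member in 1 library minus the mean of the 5 intact libraries, with rows grouped by role and a line between intact and ORX. Hmox1 is blue and Gstk1 red in all 6 ORX libraries, Srxn1 and Gclc are red in intact 1, 2 and 5 and blue in intact 3 and 4, and ORX 6 is the highest ORX library for 28 of 42 rows.

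A further 94 genes of the same pathways were followed as 6 lists, of which 92 were in the table and 82 tested: 6 rose (7.32%, against 3.03% of all tested genes), 0 fell by edgeR (against 3.18%) and 76 did not pass. At an unadjusted p under 0.05 by edgeR, 20 were higher and 6 lower, against 22.9% of all tested genes in either direction. DESeq2 called 11 higher and 2 lower, against 11.5% of all tested genes in either direction. Limma voom called 11 higher and 5 lower, against 14.5%. Of 15 other glutathione cycle genes, Ggt6, of the gamma-glutamyl transferase family that breaks glutathione down outside the cell, rose from 0.128 ± 0.127 to 2.98 ± 1.21 CPM, a log2 fold change of 4.50 ± 0.56 (edgeR adjusted p = 0.000533). Its reads numbered 8 over the 5 intact libraries and 247 over the 6 ORX libraries. Glrx5, a mitochondrial glutaredoxin of iron-sulfur cluster assembly, rose from 114 ± 13.3 to 217 ± 77.4 CPM (log2 fold change 0.93 ± 0.22; edgeR adjusted p = 0.0273). Of 11 other glutathione transferases, Mgst1, a membrane-bound transferase, rose from 383 ± 92.2 to 771 ± 143 CPM (log2 fold change 1.01 ± 0.20; edgeR adjusted p = 0.00973). Ggt6, Glrx5 and Mgst1 were each higher in every ORX library than in every intact library, as were 2.92% of all tested genes.

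Nucleoredoxin, Nxn, a thioredoxin relative, was the 1 of 14 other thioredoxin-system genes that rose by edgeR, from 24.7 ± 3.74 to 42.1 ± 7.18 CPM (log2 fold change 0.77 ± 0.16; edgeR adjusted p = 0.0118). The groups of Nxn also did not overlap, though ORX 3, at 31.3 CPM, was only just above intact 4, at 31.2 CPM. Among 22 other known NRF2 targets, Esd, an esterase that hydrolyses S-formylglutathione, rose from 99.9 ± 18.2 to 173 ± 59.1 CPM (log2 fold change 0.79 ± 0.22; edgeR adjusted p = 0.0478). The median log2 fold change over these 22 was 0.00. Of 9 genes for sources of reactive oxygen, Xdh, xanthine dehydrogenase, rose from 214 ± 85.9 to 442 ± 84.2 CPM (log2 fold change 1.05 ± 0.24; edgeR adjusted p = 0.0199). Of 11 other regulators of NRF2, such as Bach1, Mafg and Cul3, 0 passed by edgeR, DESeq2 or limma voom, and Maff and Dpp3 had an unadjusted p under 0.05 by edgeR.

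**Figure D5:**
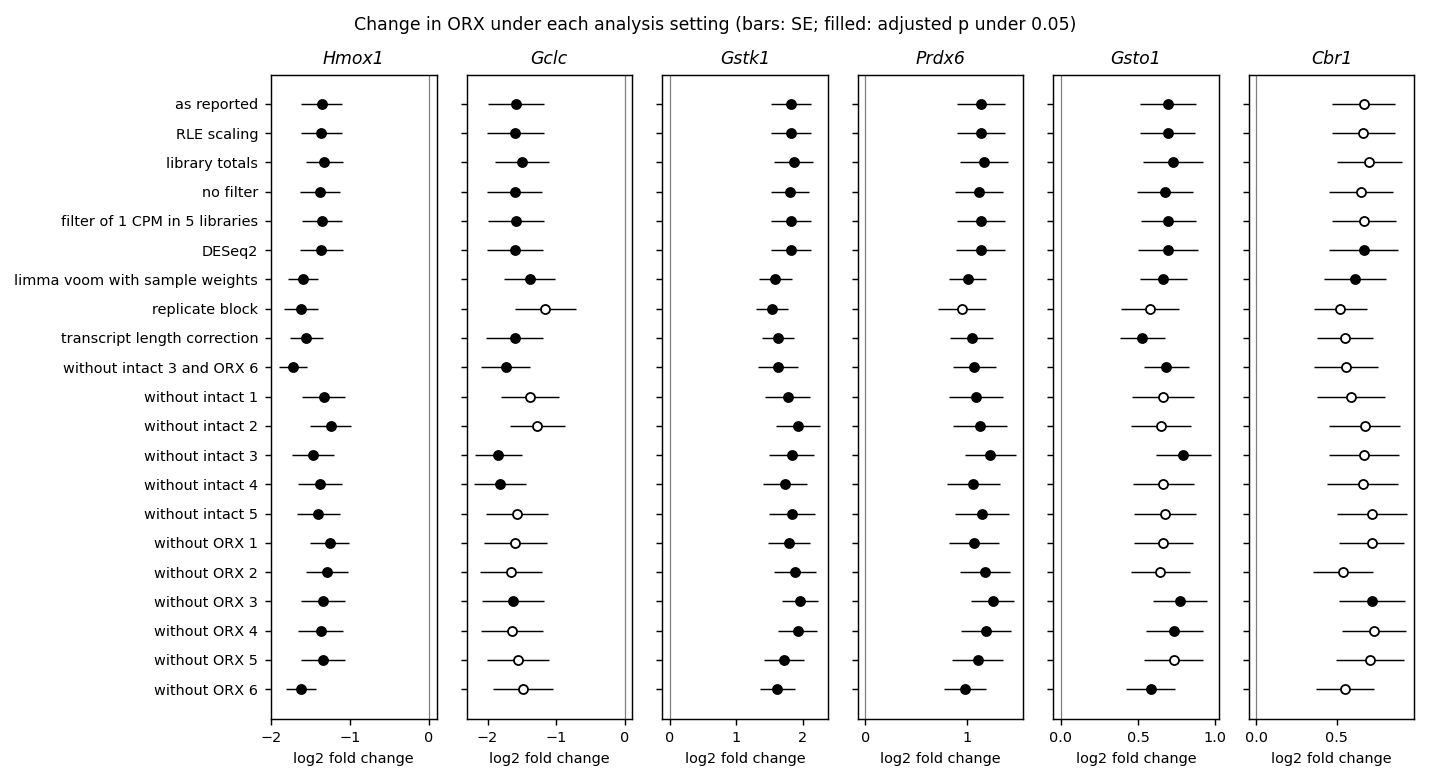
For 6 genes, the log2 fold change in ORX relative to intact (horizontal axis) is drawn with its standard error under each analysis setting (rows); filled circles have an adjusted p under 0.05. Hmox1 and Gstk1 are filled in every row, Prdx6 is open only with the sample number as a block, and Gclc, Gsto1 and Cbr1 change between filled and open.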

How the data were processed

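The deposited table gives the authors' raw read counts for each gene symbol and library, as whole numbers. Per the submitters' processing notes, bcl2fastq 1.8.4, Subread 1.5.1 and mm10 were used, in roles those notes do not state. How reads were assigned to strand or to near-identical genes, and with which annotation, was not given in the sources used here. Per the labels' protocols, 300 ng of RNA went into each TruSeq library, and both a stranded and an unstranded guide are cited. Because the file repeats the whole table, giving 2 equal copies, only the first was read.

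Low genes were removed with filterByExpr in edgeR 4.0.16 under R 4.3.3 (minimum count 10, minimum total 15), leaving 14139 genes that carry 99.9% of all reads. After TMM scaling, ORX was compared with intact by edgeR's quasi-likelihood test (glmQLFTest), two-sided and without covariates, and p-values were adjusted by Benjamini-Hochberg across those 14139 genes, with 0.05 as the threshold. Each standard error is the log2 fold change divided by the root of its F value. Levels per length are CPM divided by the kilobases of merged exons in GENCODE M21 (GRCm38), found by symbol, which also gave positions and transcript lengths. Sequence shared between genes is the percentage of 50-base stretches of a gene's transcripts found, on either strand, in transcripts of another gene.

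The members, lists and tests were chosen with earlier results of these data known. Values in every library are given for members past the threshold, members whose groups do not overlap, the member with the smallest p in each role, and Nfe2l2, Keap1, Nqo1, Hmox1, Gclc, Gclm, Txnrd1 and Srxn1. From the other pathway lists, up to 4 genes past the threshold are named per list. Ephx1, Cd163, Mrc1, Maff and Dpp3 were chosen after their values were seen. The test was also run on simulated counts.

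Alternatives each changed 1 choice, except where stated: the scaling (RLE, or plain totals), the filter (absent, or 1 CPM in at least 5 libraries), the tool (DESeq2 1.42.0, or limma 3.58.1 voom with sample weights), a block for the sample number (2 changes together, since ORX 6 has no intact partner and its own term takes it out of the comparison), a lowess correction of each library for transcript length (span 0.3), the threshold (0.1), and the libraries (each left out in turn, or intact 3 and ORX 6 together).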

Additional observations from a re-analysis of the deposited data

Results flagged for a closer look

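In 32 groups of libraries (16 genes in 2 groups), 3 had a library far from the others by Dixon's test at the 95% level, which chance gives in about 1 of 20 groups. Hmox1 in ORX 6, at 128 CPM, stood above the next ORX library at 70.2 CPM, and without ORX 6 its log2 fold change was -1.62. Gsta3 in ORX 6, at 128 CPM, stood above the next at 72.9 CPM. Gsto1 in intact 3, at 45.3 CPM, stood above the next intact library at 33.4 CPM, and without intact 3 its log2 fold change was 0.79.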

How the results depend on the processing

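Hmox1 and Gstk1 passed under each of the 21 alternatives, with log2 fold changes from -1.73 to -1.25 and from 1.54 to 1.97. The threshold of 0.1 is 1 of the 21, and a gene that passed at 0.05 passes it by definition. Prdx6 passed under 20 of the 21 and missed the threshold with the sample number as a replicate block (log2 0.95; adjusted p = 0.0737). That fit also takes ORX 6, which has no intact partner, out of the comparison. It called 416 genes, against 878 with neither change and 871 without ORX 6 alone, with 1 member higher (Gstk1) and 1 lower (Hmox1), and Gclc (adjusted p = 0.203) and Gsto1 (0.146) were not called. The labels do not say whether the numbers pair the samples. Correlations of same-numbered samples' deviations from their group means were between -0.28 and 0.18 for the 5 numbers. Of the 5 intact samples, 1 correlated best with its own number. These values cannot settle whether same-numbered samples were handled together. DESeq2 called 1630 genes and limma voom 2056, with 4 members lower by limma voom (Hmox1, Gclc, Ephx1 and Gstm3), and both also called Cbr1 as higher (adjusted p = 0.0224 and 0.0478). At an adjusted p under 0.1, 1617 genes passed. With 1 library left out, 408 to 1280 genes were called, 2 to 4 members higher and 1 to 2 lower; Ephx1 also passed as lower with the length correction (adjusted p = 0.0419). Gpx3 lay between -0.69 (without intact 2) and 0.041 (without intact 4), where its sign reversed from -0.47. The remaining causes were not tested. Counts were lowest for Gsta1 (0), Gsta2 (2) and Gstm3 (56 in intact and 30 in ORX), so their values are the least precise.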

Other observations

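The library pattern of Srxn1 and Gclc in intact glands was also seen in genes of cholesterol supply and steroid by-product handling, chosen after their values were seen. Scarb1, the HDL receptor that brings in cholesterol, measured 8212, 8468, 2834, 2894 and 6933 CPM in intact 1 to 5, and Akr1b7, an aldo-keto reductase of lipid aldehydes, 6819, 11156, 1046, 2192 and 6313 CPM. Intact 1, 2 and 5 were thus the higher libraries and intact 3 and 4 the lower ones for all 4 genes. The pattern was not particular to them. It was also seen in the sum of the 9 cortex markers, which include Scarb1, and in the medulla markers Npy, Th and Slc18a2. The pathway genes Slc7a11, Slc3a2 and Maff showed it too, whereas others, such as Chga, Pnmt and Mafg, did not. These genes were also picked after their values were seen. In ORX 1 to 6, Scarb1 measured 889, 1363, 3017, 2296, 4404 and 3873 CPM and Akr1b7 152, 525, 2362, 266, 2078 and 1379 CPM. ORX 3, 5 and 6 were the 3 highest ORX libraries for Srxn1, Scarb1 and Akr1b7, whereas Gclc was lowest in ORX 6 and next lowest in ORX 5. Star, which delivers cholesterol to the mitochondrion, was likewise higher in intact 1, 2 and 5 (26983, 27748 and 24786 CPM) than in intact 3 and 4 (9729 and 15561 CPM), but in ORX it ranged only from 17431 to 27903 CPM. No test was made of these orders.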
